A study of Mus musculus with 4 samples.

Results

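Genes that mark the antibody-secreting state, at the cell surface or along the secretory route, were described in subclones of the mouse hybridoma 36-65 that differ in how often they switch antibody isotype in culture. The 10 genes were Sdc1, Epcam, Jchain, Mzb1, Txndc5, Fkbp11, Sec11c, Ell2, Tent5c and Creb3l2. They were chosen by name, and every probe set that the platform annotation gives 1 of these symbols was used. This gave 21 of the 45037 probe sets tested, and 10 of the 18193 genes with a probe set of their own. A hybridoma is an immortal antibody-producing line made by fusing a B lineage cell with a myeloma cell. Subclones H23 and H27 switched isotype spontaneously at high frequency in vitro, and subclones L25 and L27 did so at low frequency. All 4 were grown in medium with 10% fetal calf serum, and the labels name no treatment, so the classes differ by switching frequency alone as far as they are described. Total RNA of each subclone was hybridized to 1 Affymetrix expression array.

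All 4 subclones come from a single hybridoma, so the arrays describe that line and not B cells in an animal. Nothing in the labels says that the subclones of a class arose independently, so each p-value measures only the spread between these samples, which may be technical. Precision is limited by there being only 4 arrays. All values are log2 of the deposited intensity, differences are high minus low switching, and errors of differences are standard errors from limma with 95% intervals. The threshold was an adjusted p of 0.05 after Benjamini-Hochberg adjustment over all 45037 probe sets. With 2 arrays in each class, an exact permutation test of a single value cannot give a p below 0.333, so limma was used throughout.

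When a B cell becomes a plasma cell it expands its endoplasmic reticulum (ER) and turns most of its protein synthesis to antibody. Antibody chains enter the ER through the translocon, lose their signal peptide, are folded and joined by disulfide bonds, and leave for the Golgi in coated vesicles. Syndecan 1, encoded by Sdc1, is the surface protein most used to recognize plasma cells, while RNA-processing factors such as Ell2 and Tent5c favour or stabilize the mRNAs of secreted antibody.

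The 4 arrays had median log2 values from 5.25 to 5.30, and classes were not separated by this median. The labelled cell type was checked by its markers, and all 5 plasma cell markers that could be measured, of 7 listed, lay above the median of every array. So did 3 of 10 B cell, 7 of 9 T cell, 5 of 12 epithelial, 4 of 11 myeloid and 3 of 9 fibroblast markers, so a signal above the median does not by itself single out a cell type. The hybridization controls, spiked into every sample, averaged 10.37 on H23 and 10.85 on H27, against 10.94 on L25 and 10.30 on L27, so their level did not follow the classes. Over all probe sets limma called 1618, of which 674 (1.5%) were higher and 944 (2.1%) lower in the high switching subclones.

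None of the 21 member probe sets passed the threshold in limma, against 3.59% of all probe sets. At an unadjusted p of 0.05 there were 3, namely both probe sets of Epcam and 1 of Fkbp11, against 18.6% of all probe sets. Differences of the 21 probe sets ran from -1.03 to 0.42 with a median of 0.00. Their standard errors ran from 0.11 to 0.26. For 18 of the 21, and for 7 of the 10 genes by their brightest probe set, the 95% interval lay wholly inside a 2-fold difference either way. The same held for 42288 of all 45037 probe sets and for 7311 of the 8222 genes with a mean log2 of at least 7. The shares among the members were thus not higher than these. The 3 member genes whose interval reached 2-fold were Epcam, Fkbp11 and Tent5c. In bulk RNA, fewer cells with a transcript and less of it per cell cannot be told apart.

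The classes did not overlap for 8 of the 21 probe sets, 3 of them higher and 5 lower in the high switching subclones. Over all probe sets 47.3% did not overlap, 25.1% higher and 22.2% lower. All 8 were among the 17 member probe sets with a mean log2 of at least 7, and among all probe sets at that level 63.5% did not overlap. The share among the members was below both of these backgrounds. By gene, 5 of 10 did not overlap, against 51.4% of all genes. All 10 had a mean log2 of at least 7, and of the 8222 genes at that level 5368 did not overlap.

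**Figure D1:**
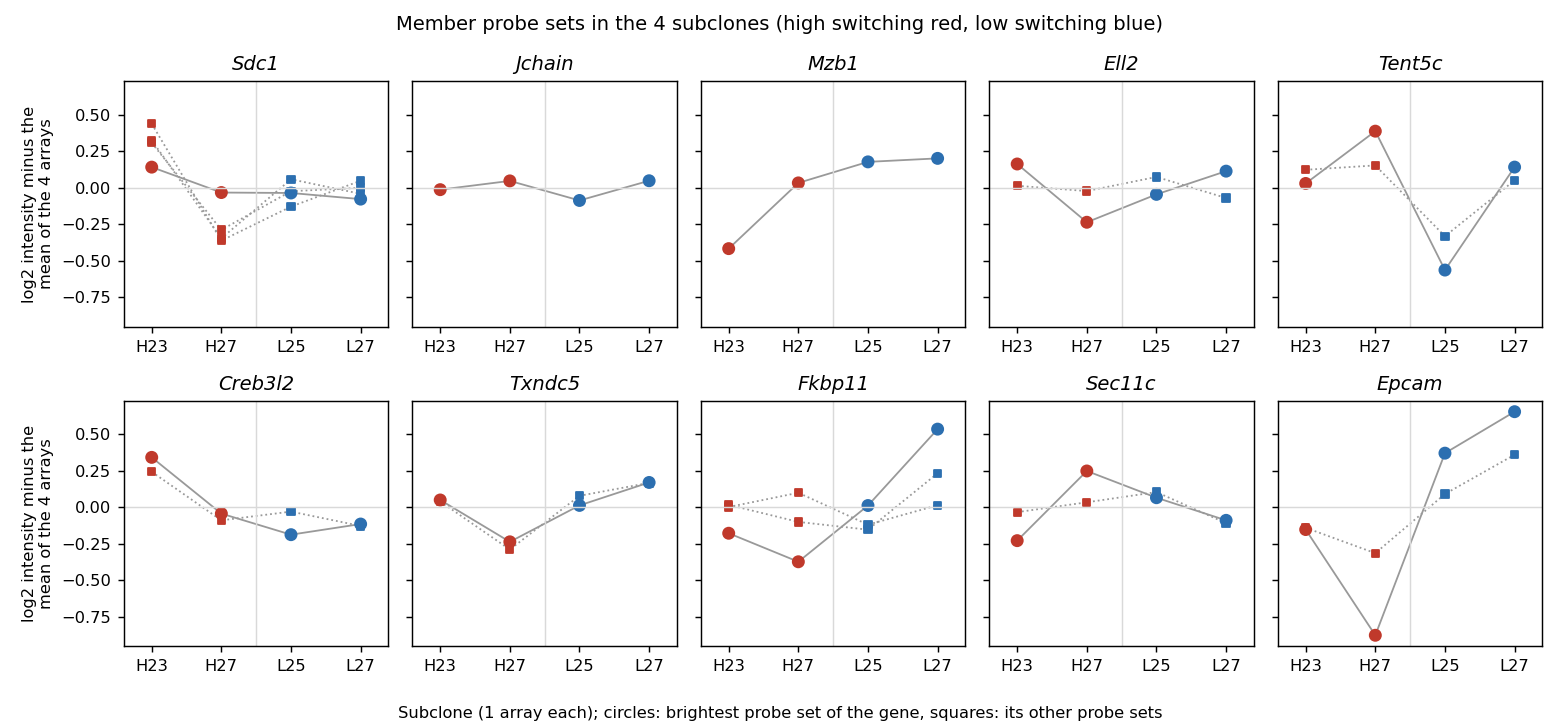
Each panel plots the log2 values of 1 gene in the 4 subclones, each probe set centred on its own mean over the arrays. High switching subclones H23 and H27 stand left of low switching L25 and L27. Epcam is the gene with the widest range, low in both high switching subclones, while Jchain lies close to its mean on all 4 arrays. Circles stand for the brightest probe set of a gene and squares for its others.

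Sdc1 encodes syndecan 1 (CD138), a heparan sulfate proteoglycan that binds growth factors and matrix. Its brightest probe set, 1437279_x_at, read 12.66 in H23 and 12.48 in H27, against 12.48 in L25 and 12.44 in L27. The classes did not overlap, but only by a margin of 0.002, H27 being the low one of its class. The difference was 0.11 ± 0.12 (interval -0.17 to 0.39), with a limma adjusted p of 0.708. Probe set 1415943_at read 12.53 and 11.93 in H23 and H27, against 12.20 and 12.22 in L25 and L27. Here the low switching pair was nearly equal and lay between the values of H23 and H27. The low switching pair also lay between H23 and H27 on 1415944_at, at 10.20 in H23 and 9.53 in H27, against 9.93 in L25 and 9.83 in L27. Probe set 1448158_at read 11.39 in H23 and 10.59 in H27, against 10.82 in L25 and 11.00 in L27. All 4 Sdc1 probe sets were higher in H23 than in H27, and none of the differences between the classes passed the threshold, with limma adjusted p-values from 0.708 to 0.988.

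Epcam encodes an adhesion protein of the cell surface that is best known from epithelia. Its brighter probe set, 1416579_a_at, read 11.29 in H23 and 10.57 in H27, against 11.82 in L25 and 12.10 in L27. As intensities these are 2511 and 1521 in H23 and H27, against 3607 and 4393 in L25 and L27. Both high switching subclones were below both low switching ones, and H27 was the lowest. The class means were 10.93 ± 0.51 in high and 11.96 ± 0.20 in low switching subclones (SD, n = 2 each). The difference of -1.03 ± 0.25 is a fold of 0.491 (95% interval 0.324 to 0.743), with an adjusted p of 0.087 in limma, which missed the threshold.

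The dimmer Epcam probe set, 1447899_x_at, read 7.73 in H23 and 7.55 in H27, against 7.96 in L25 and 8.23 in L27. It ordered the subclones in the same way. Its difference was -0.45 ± 0.14, with a limma adjusted p of 0.151. The call for Epcam turned on single subclones: without H23 the difference of the brighter probe set was -1.39 with an adjusted p of 0.0383, and without H27 it was -0.67 with an adjusted p of 0.156, both from limma. Without L25 it was -1.17 and without L27 -0.88, with limma adjusted p-values of 0.211 and 0.264. In these fits the lone array of a class is assumed to vary like the other class.

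Markers of epithelial cells were set beside Epcam. Of 12 measured, 5 (Elf3, Ocln, Cldn4, Grhl2 and Cldn3) lay above the median of every array, while Cdh1, Krt8, Krt18 and Krt19, which define epithelia, did not. The summed intensity of the 12 was 1832 in H23 and 1448 in H27, against 2210 in L25 and 2080 in L27, lowest in H27 as for Epcam. Of that sum, Elf3 alone gave 961 in H23 and 702 in H27, against 855 in L25 and 882 in L27. Its difference was -0.08 ± 0.17 (limma adjusted p 0.878), so the sum does not show a pattern shared by the markers. Cldn4, a tight junction protein, fell in the high switching subclones, at 7.17 in H23 and 6.53 in H27 against 8.98 in L25 and 8.66 in L27 (difference -1.97 ± 0.23, limma adjusted p 0.0153). Without L25 its adjusted p was 0.0823. Ocln, another tight junction protein, read 7.95 in H23 and 7.40 in H27, against 8.67 in L25 and 8.57 in L27, and missed the threshold (limma adjusted p 0.0564). It passed in 3 of 12 alternative settings of the fit, such as among probe sets above the median (limma adjusted p 0.0472). Without H23 its difference was -1.22. The epithelial markers did not share a direction, with 8 of the 12 below 0 and 4 above. Grhl2, an epithelial transcription factor, gave 0.37 ± 0.12 and was higher in both high switching subclones, Krt18, a keratin, gave 0.39 ± 0.15 and Cldn3 gave 0.10 ± 0.14, with limma adjusted p-values of 0.159, 0.234 and 0.791. The part of these markers in the Epcam values was not tested.

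Among 8221 other genes with a mean log2 of at least 7, the 3 whose centred values over the 4 arrays lay nearest to those of Epcam were Mpzl2, Gatm and Pde8a, at Euclidean distances of 0.0929, 0.111 and 0.149 log2 units. Mpzl2, another adhesion protein, read 7.40 in H23 and 6.69 in H27, against 7.83 in L25 and 8.14 in L27. Gatm, an enzyme of creatine synthesis, read 7.01 in H23 and 6.19 in H27, against 7.57 in L25 and 7.86 in L27. Pde8a, a cyclic nucleotide phosphodiesterase, read 6.93 in H23 and 6.22 in H27, against 7.58 in L25 and 7.65 in L27. They were picked for this pattern, so no test is given for it. Epcam was the only one of the 10 genes with a range of at least 1 over the arrays, so no other gene was matched in this way.

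**Figure D2:**
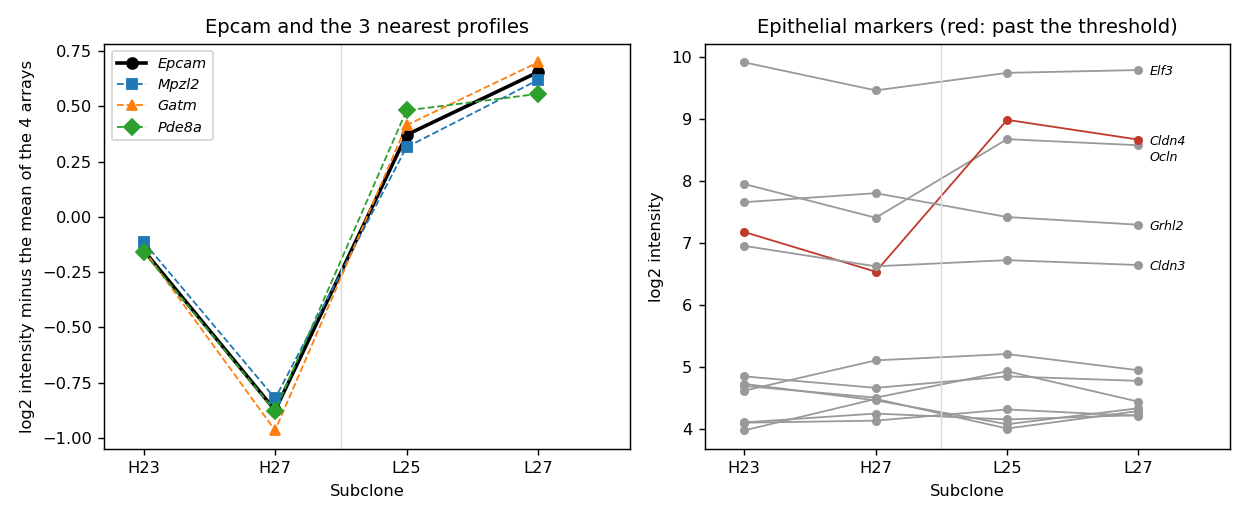
The left panel plots the centred log2 values of Epcam and the 3 genes nearest to it, and the right panel the log2 values of 12 epithelial markers, for H23 and H27 and then L25 and L27. The 4 centred profiles nearly coincide, lowest in H27, and Cldn4 is the only epithelial marker past the threshold.

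Of the genes that assemble and fold antibody in the ER, Jchain encodes the joining chain that links IgM and IgA into polymers. It read 14.43 in H23 and 14.49 in H27, against 14.35 in L25 and 14.49 in L27. The values of the classes overlapped, with L25 the lowest. The difference was 0.04 ± 0.11 (interval -0.24 to 0.31), with a limma adjusted p of 0.927.

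Mzb1 encodes an ER protein that helps to assemble and secrete IgM. It read 12.99 in H23 and 13.44 in H27, against 13.59 in L25 and 13.61 in L27. Both high switching values were lower, and H23 stood 0.45 below H27 whereas the low switching pair differed by 0.02. The difference was -0.38 ± 0.17 (interval -0.78 to 0.02), with a limma adjusted p of 0.295.

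Txndc5, a member of the protein disulfide isomerase family, read 10.01 in H23 and 9.72 in H27 on 1423746_at, against 9.97 in L25 and 10.13 in L27. The classes overlapped, and the difference was -0.18 ± 0.14 with a limma adjusted p of 0.573. On 1451091_at it read 9.78 in H23 and 9.45 in H27, against 9.81 in L25 and 9.90 in L27. There the classes did not overlap, by a margin of a few hundredths, and the difference of -0.25 ± 0.14 also missed the threshold (limma adjusted p 0.438).

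Fkbp11 encodes a peptidyl-prolyl isomerase of the secretory pathway. Its brightest probe set, 1417267_s_at, read 8.84 in H23 and 8.64 in H27, against 9.03 in L25 and 9.55 in L27. Both high switching subclones were lower, and L27 was well above L25. The difference was -0.55 ± 0.19 (interval -1.01 to -0.09), with a limma adjusted p of 0.196. Leaving out 1 subclone at a time gave differences from -0.81 without L25 to -0.29 without L27. The other Fkbp11 probe sets were dimmer and gave 0.10 ± 0.11 (1425938_a_at, limma adjusted p 0.727) and -0.08 (1425839_at, limma adjusted p 0.863), so the 3 probe sets disagreed in sign.

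Sec11c encodes a catalytic subunit of the signal peptidase, which removes the leader of proteins that enter the ER. On 1460698_a_at it read 12.03 in H23 and 12.51 in H27, against 12.32 in L25 and 12.17 in L27. H23 was the lowest and H27 the highest of the 4, and the difference was 0.02 ± 0.18 (interval -0.41 to 0.45, limma adjusted p 0.977). The dim 1440378_at gave 0.00. Its sister subunit Sec11a read 11.82 in H23 and 11.89 in H27, against 12.08 in L25 and 11.98 in L27, and missed the threshold. The other subunits, Spcs1, Spcs2 and Spcs3, gave 0.09, -0.15 and 0.29 and missed it too.

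Ell2, an elongation factor of RNA polymerase II, favours use of the poly(A) site that yields secreted heavy chain. On 1450744_at it read 11.99 in H23 and 11.59 in H27, against 11.78 in L25 and 11.94 in L27. The classes overlapped, with H27 the lowest, and the difference was -0.07 ± 0.16 (interval -0.46 to 0.32, limma adjusted p 0.889). Its other probe set, 1458569_at, lay below the median of the arrays and gave -0.01 (limma adjusted p 0.993).

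Tent5c encodes a poly(A) polymerase that lengthens the tails of mRNAs of secreted proteins. On 1448021_at it read 12.89 in H23 and 13.25 in H27, against 12.29 in L25 and 13.00 in L27. L25 was low, and L27 overlapped the high switching subclones. The difference was 0.42 ± 0.25 (interval -0.19 to 1.03, limma adjusted p 0.455), and it was 0.07 without L25 and 0.77 without L27. On 1429682_at Tent5c read 12.89 in H23 and 12.92 in H27, against 12.44 in L25 and 12.82 in L27. L25 was again the lowest. Without overlap, the difference there was 0.28 ± 0.15 (limma adjusted p 0.407).

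Creb3l2 encodes a transcription factor held in the ER membrane until it is cut and moves to the nucleus. On 1452381_at it read 10.45 in H23 and 10.06 in H27, against 9.92 in L25 and 9.99 in L27. Both high switching subclones were higher, H27 by little, and the difference was 0.30 ± 0.15 (interval -0.07 to 0.67, limma adjusted p 0.373). On 1437396_at the values were 9.38 in H23 and 9.05 in H27, against 9.11 in L25 and 9.01 in L27. These overlapped, and the difference was 0.16 ± 0.14 (limma adjusted p 0.661).

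**Figure D3:**
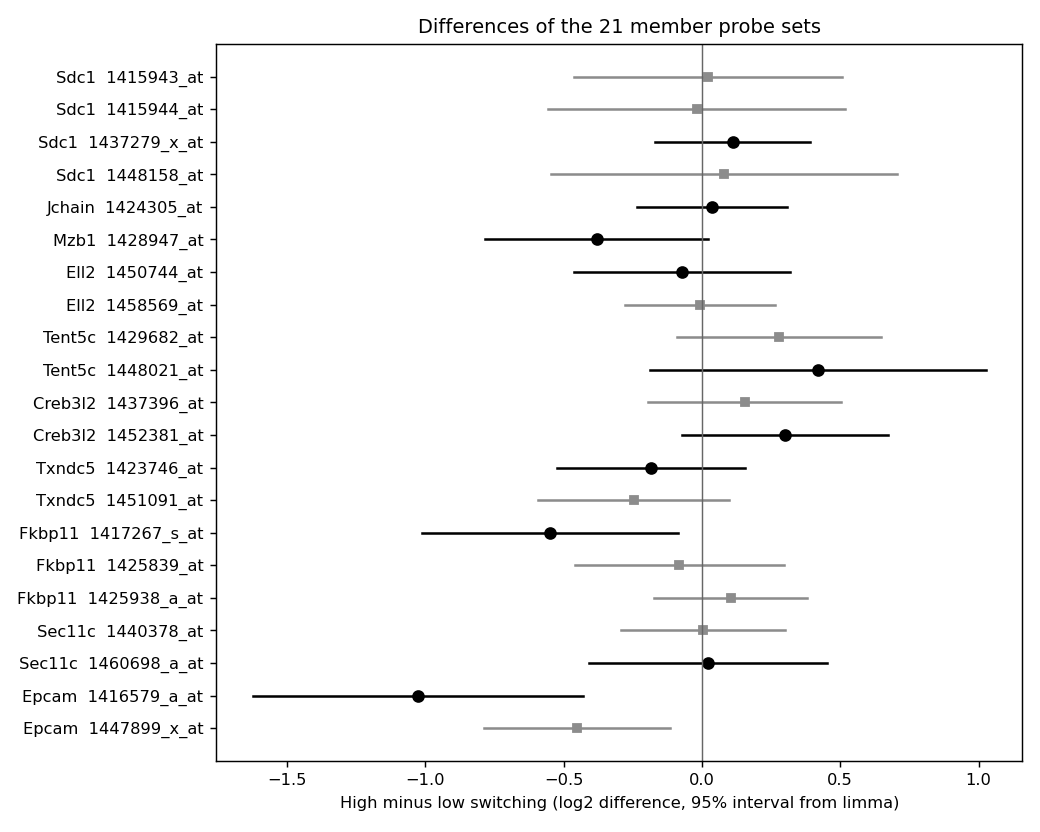
High minus low switching differences of the 21 probe sets on the log2 scale are drawn as points with 95% intervals from limma. They run from -1.03 for Epcam to 0.42 for Tent5c, and none passed the threshold after adjustment over all probe sets.

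The subclones of a class were also set against each other. H27 and H23 differed by at least 1.5-fold in 4 of the 21 probe sets, against 2.49% of all probe sets and 3.6% of those with a mean log2 of at least 7. The 4 were 3 probe sets of Sdc1 and the brighter probe set of Epcam, all lower in H27. For Sdc1 the folds of H27 over H23 were 0.574, 0.628 and 0.662. The 3 Sdc1 probe sets read the same transcript and count as 1 gene, and each subclone is a single array, so no test of this difference is given. By the brightest probe set, only Epcam among the 10 genes differed that much between H27 and H23. L27 and L25 differed by that much in 1 probe set, Tent5c 1448021_at, at 1.63-fold higher in L27, against 2.11% of all probe sets and 2.46% of the brighter ones, which again is 1 of the 10 genes.

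Among the 17 member probe sets with a mean log2 of at least 7, the median absolute difference was 0.358 between H27 and H23 and 0.155 between L27 and L25. The median absolute difference between the classes was 0.185. Over all probe sets at that level the same medians were 0.157, 0.126 and 0.234. So among the members the gap between H27 and H23 exceeded the gap between the classes. Among all probe sets at that level the gap between the classes was the wider one. By gene, the members had medians of 0.37 between H27 and H23, 0.16 between L27 and L25 and 0.24 between the classes. All genes at that level had 0.16, 0.12 and 0.24, so the class gap was alike. A difference of 2 single arrays also varies more than one of 2 class means, so the gaps are not strictly comparable. H27 was below H23 in 14 of the 21 member probe sets, against 22388 of all 45037. L27 was above L25 in 15 of the 21, against 21821 of all 45037. Since 4 of the 21 probe sets belong to Sdc1, the counts by gene were 6 of 10 and 8 of 10, against 9605 and 8977 of all 18193 genes.

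**Figure D4:**
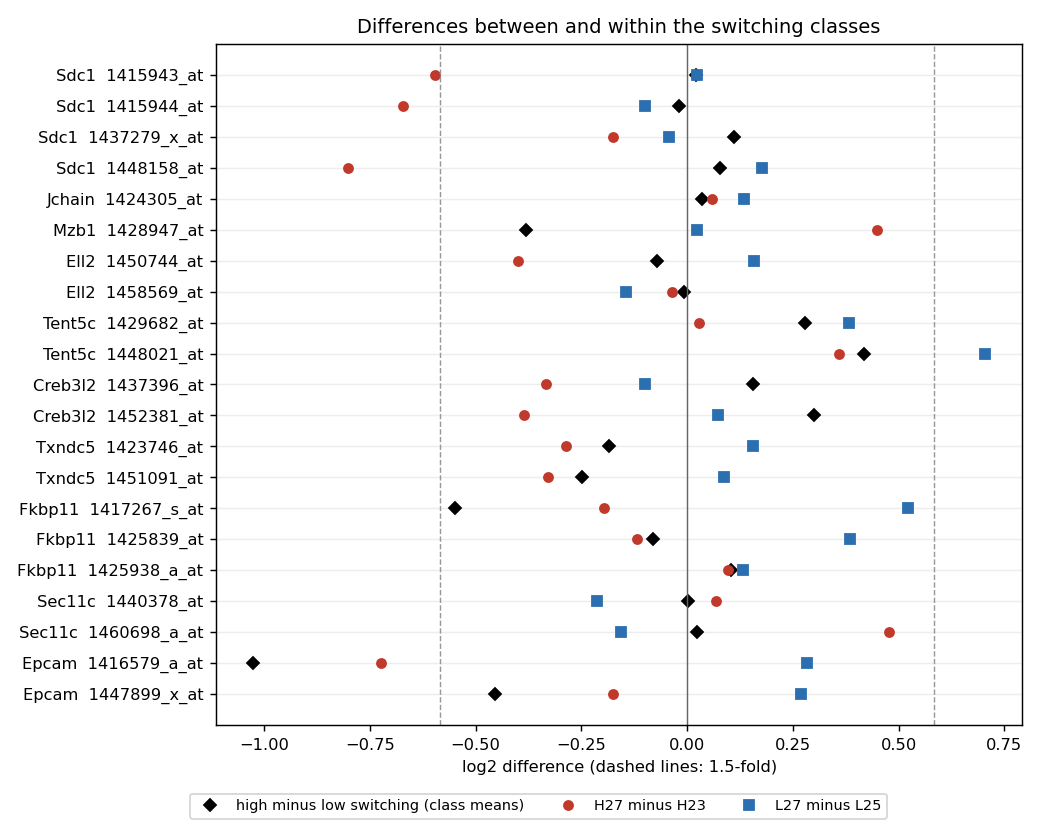
For each of the 21 probe sets the log2 difference of the class means (high minus low), of H27 minus H23 and of L27 minus L25 is plotted, with dashed lines at 1.5-fold. Past the lines lie 3 Sdc1 probe sets and Epcam for H27 minus H23, Tent5c for L27 minus L25, and Epcam alone for the class means.

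Promoters of the members were read for letters that factors of the ER stress response are known to bind. RefSeq windows of assembly GRCm38.p6, from 250 bases before to 50 after a transcript start, covered 8 of the 10 genes with 11 windows. The motifs searched, on both strands, were CCAAT and CCACG, which are the ends of the ER stress element, and TGACGT, a core bound by factors of the CREB and ATF families. The 4 genes in which TGACGT was found are shown with Epcam, whose window held none of the motifs. The window of Jchain, with a class difference of 0.04, also held none and is not shown. Capitals mark a match to any of the motifs on either strand, and matches that adjoin or overlap form 1 run. Creb3l2 lies on the minus strand at chr6:37442099-37442398, Ell2 on the plus strand at chr13:75707234-75707533, Fkbp11 on the minus strand at chr15:98727578-98727877, Txndc5 on the minus strand at chr13:38527865-38528164 and Epcam on the plus strand at chr17:87635729-87636028. Each is written from its 5′ end.
Creb3l2: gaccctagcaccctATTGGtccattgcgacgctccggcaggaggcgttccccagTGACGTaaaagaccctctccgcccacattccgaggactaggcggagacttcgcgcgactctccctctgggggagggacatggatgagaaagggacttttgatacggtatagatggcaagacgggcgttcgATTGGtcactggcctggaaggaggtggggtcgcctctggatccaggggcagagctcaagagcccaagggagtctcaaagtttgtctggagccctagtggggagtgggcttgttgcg
Ell2: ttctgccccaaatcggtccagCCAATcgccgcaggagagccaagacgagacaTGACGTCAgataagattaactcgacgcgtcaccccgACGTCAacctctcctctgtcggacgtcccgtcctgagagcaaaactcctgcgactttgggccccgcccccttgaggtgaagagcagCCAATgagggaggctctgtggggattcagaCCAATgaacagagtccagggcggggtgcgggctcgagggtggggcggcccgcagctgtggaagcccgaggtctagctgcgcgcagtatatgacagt
Fkbp11: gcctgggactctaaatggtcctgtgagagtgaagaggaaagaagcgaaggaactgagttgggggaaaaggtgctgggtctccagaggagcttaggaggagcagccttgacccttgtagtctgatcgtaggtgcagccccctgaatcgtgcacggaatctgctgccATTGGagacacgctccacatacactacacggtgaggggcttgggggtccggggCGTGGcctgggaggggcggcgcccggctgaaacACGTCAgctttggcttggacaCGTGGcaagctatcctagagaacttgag
Txndc5: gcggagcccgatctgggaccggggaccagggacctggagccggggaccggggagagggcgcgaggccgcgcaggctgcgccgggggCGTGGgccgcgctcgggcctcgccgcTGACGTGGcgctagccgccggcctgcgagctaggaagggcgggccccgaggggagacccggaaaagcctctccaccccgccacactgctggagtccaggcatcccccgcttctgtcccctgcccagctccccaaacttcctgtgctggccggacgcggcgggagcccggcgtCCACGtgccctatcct
Epcam: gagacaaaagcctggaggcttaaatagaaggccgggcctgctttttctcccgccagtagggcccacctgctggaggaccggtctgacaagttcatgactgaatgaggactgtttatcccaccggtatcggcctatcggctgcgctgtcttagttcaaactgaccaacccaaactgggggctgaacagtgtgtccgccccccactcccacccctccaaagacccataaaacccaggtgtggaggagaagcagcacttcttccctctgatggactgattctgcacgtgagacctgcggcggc

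TGACGT was found in 4 of the 11 windows, against 7.51% of 32851 promoters of this length. CCAAT was in 5 of 11, against 37.4%, and CCACG in 4 of 11, against 32.8%. In Ell2 there were 3 matches to TGACGT, where a palindrome is read on both strands, and in Txndc5 TGACGT shares letters with CCACG, which is read there on the opposite strand. The 4 genes with TGACGT had class differences from -0.55 for Fkbp11 to 0.30 for Creb3l2, and the 4 without it from -1.03 for Epcam to 0.42 for Tent5c. Genes with and without the letters thus covered overlapping ranges. A match is a run of letters and shows no binding, and the windows of Fkbp11 and Txndc5 that hold it do not hold the gene's annotated start.

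Differences of neighbouring genes on the chromosome were set beside those of the members. Sdc1, at 0.11, lay among 38 neighbours on chromosome 12 with a median difference of -0.39, of which limma called 9, against 7.64% of all genes with a mean log2 of at least 7. Around the other members limma called from 0 to 4. Tent5c, at 0.42, had 40 neighbours with a median of 0.46, on chromosome 3, whose other genes had a median of 0.37. Creb3l2, at 0.30, had 40 neighbours on chromosome 6 with a median of 0.29. Epcam, at -1.03, had 26 neighbours on chromosome 17 with a median of -0.26 and a lowest value of -1.59. Around the other 6 genes the medians ran from -0.34 (Jchain) to 0.07 (Fkbp11). The part of gene copy number in these values was not tested.

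Other proteins of the plasma cell surface were taken from a list. Of 22 measured, of 26 listed, 1 rose and 3 fell in the high switching subclones in limma. Of all genes, 2.04% were called higher and 2.78% lower (4.82% in all), and of those with a mean log2 of at least 7, 7.64% were called. The median difference of the list was -0.22. Cd44, a hyaluronan receptor, fell, at 10.97 in H23 and 10.58 in H27, against 12.31 in L25 and 12.23 in L27 (-1.49 ± 0.15, adjusted p 0.0114). Cd47, a signal that protects cells from being engulfed, fell too, at 10.71 in H23 and 10.76 in H27, against 11.78 in L25 and 11.70 in L27 (-1.01 ± 0.11, adjusted p 0.0122). Tnfrsf17, the receptor BCMA that sustains plasma cells, fell to 8.51 and 8.43 in H23 and H27, against 9.32 and 9.05 in L25 and L27 (adjusted p 0.0454). Icam1, an adhesion ligand of leukocyte integrins, rose, at 8.57 in H23 and 8.21 in H27 against 6.85 in L25 and 7.31 in L27 (1.31 ± 0.20, adjusted p 0.028). Cd81 (-0.79 ± 0.17, adjusted p 0.0689) and Cxcr4 (-0.77 ± 0.22, adjusted p 0.137) missed the threshold. With 1 subclone left out, Cd44 lost its call without L25 (adjusted p 0.0697), Cd47 kept it only without H27 and Icam1 only without L27, and Tnfrsf17 lost it each time. Of their probe sets, 3 of 4 for Cd44 and 3 of 5 for Cd47 passed.

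The next 3 lists hold the machinery through which secreted proteins pass, and their counts stand against 2.04% of all genes called higher and 2.78% called lower. These lists are bright, with median log2 levels of 11.8, 10.6 and 10.4. Of all genes with a mean log2 of at least 7, limma called 7.64% in either direction. Of 31 measured genes of ER entry, signal peptidase and glycosylation (33 listed), 1 rose and none fell, with a median of 0.13. That gene was Stt3a, the catalytic subunit of an oligosaccharyltransferase, at 11.97 in H23 and 12.03 in H27 against 11.37 in L25 and 11.28 in L27 (0.67 ± 0.11, limma adjusted p 0.0332). Tusc3 (-0.65 ± 0.30) and Ssr3 (0.56 ± 0.19) missed the threshold. Of 30 genes of ER folding and disulfide formation (31 listed), 1 rose and none fell, with a median of 0.02. It was Calr, a calcium-binding chaperone of glycoproteins, at 0.62 ± 0.12 (limma adjusted p 0.0469), while Tmx1 (0.77 ± 0.15) and Dnajc3 (0.59 ± 0.13) missed the threshold. The other of the 2 Tmx1 probe sets passed, in the same direction, and the brighter one passed in 5 of 11 alternative settings. Stt3a and Calr lost their calls whichever subclone was left out, and 1 of 4 and 2 of 3 of their probe sets passed.

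Of 34 genes of ER to Golgi transport, 3 rose and none fell, with a median of -0.02, against the same 2.04% and 2.78% of all genes. Among genes with a mean log2 of at least 7 the share called in either direction was 7.64%, so 3 of 34 is near that background. Tmed3, a cargo receptor of transport vesicles, read 9.82 in H23 and 9.73 in H27, against 8.54 in L25 and 8.25 in L27 (1.38 ± 0.13, limma adjusted p 0.00929), and it kept its call whichever subclone was left out but lost it with the hybridization control level as a block (limma adjusted p 0.0833). Sec23a read 9.06 in H23 and 9.23 in H27, against 8.27 in L25 and 8.38 in L27, and Sec24d read 9.40 and 9.68 in H23 and H27, against 8.42 and 8.70 in L25 and L27. Both belong to the coat of vesicles that leave the ER, and they rose by 0.83 ± 0.12 and 0.98 ± 0.15 (limma adjusted p 0.0253 and 0.0309). Each lost its call whichever subclone was left out. Only 1 of 2 Tmed3 probe sets passed. Golgb1 (-0.69 ± 0.14) and Sec13 (0.57 ± 0.15) missed the threshold.

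Of 26 relatives and partners of the members (29 listed), limma called none, with 9 at an unadjusted p of 0.05, and the median difference was 0.00. This is no call in 26, against 4.82% of all genes and 7.64% of those with a mean log2 of at least 7. The relatives of Creb3l2 did not share a sign, with -0.33 for Creb3, 0.31 for Creb3l1, 0.13 for Creb3l3 and 0.10 for Creb3l4. The proteases that cut such factors gave 0.09 for Mbtps1 and -0.23 for Mbtps2. The 2 with the largest differences were Adam17 (-0.59 ± 0.12, adjusted p 0.0568), a sheddase of surface proteins, and Ell (0.45 ± 0.13, adjusted p 0.124), a paralogue of Ell2. Another Adam17 probe set passed the threshold.

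Among the plasma cell markers, Xbp1, which drives the secretory programme, fell, at 12.45 in H23 and 12.71 in H27 against 13.33 in L25 and 13.24 in L27 (-0.71 ± 0.13, limma adjusted p 0.0461). It lost this call whichever subclone was left out, and without probe sets that may bind several transcripts its difference was -0.44 (limma adjusted p 0.361). Of the 4 Xbp1 probe sets, 3 passed with all 4 arrays in the fit, each lower in the high switching subclones. Prdm1, the repressor that ends the B cell programme, read 11.82 in H23 and 12.05 in H27, against 10.91 in L25 and 11.48 in L27. Its difference of 0.74 ± 0.20 missed the threshold, with a limma adjusted p of 0.119. Irf4 gave 0.03 and Pou2af1 -0.06. With Tnfrsf17, which is in both lists, 2 of the 5 plasma cell markers measured fell and none rose. These and the counts of markers that follow stand against 4.82% of all genes called, and 7.64% of those with a mean log2 of at least 7. Of 10 B cell markers measured 1 rose, Cd79b (0.77, limma adjusted p 0.0238), which lost its call whichever subclone was left out. Of 11 myeloid markers 1 fell, Itgam (-1.38, limma adjusted p 0.0151), which lost its call without L25 or without L27. Of 9 fibroblast markers 1 rose, Lum (1.21, limma adjusted p 0.0272), which kept its call only without H27. Lum was dim, at 5.77 in H23 and 5.28 in H27 against 4.38 in L25 and 4.26 in L27, and did not lie above the median of every array. No T cell marker of 9 measured was called by limma, with 1 at an unadjusted p of 0.05. The markers of these types with the largest differences that missed the threshold were Blk (0.33) and Ciita (-0.13) of B cells, Cd3g (-0.53) and Cd2 (-0.44) of T cells, Cd68 (0.54) and Csf1r (0.28) of myeloid cells, and Col1a2 (0.43) and Pdgfrb (0.15) of fibroblasts. With the hybridization control level as a block, none of the 14 genes called and named among the lists and markers passed in limma, with adjusted p-values from 0.0551 to 0.132. Each level of this block held 1 subclone of each class, H27 with L25 and H23 with L27. It therefore left the differences as they were and changed only their errors, with less left to estimate the spread.

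**Figure D5:**
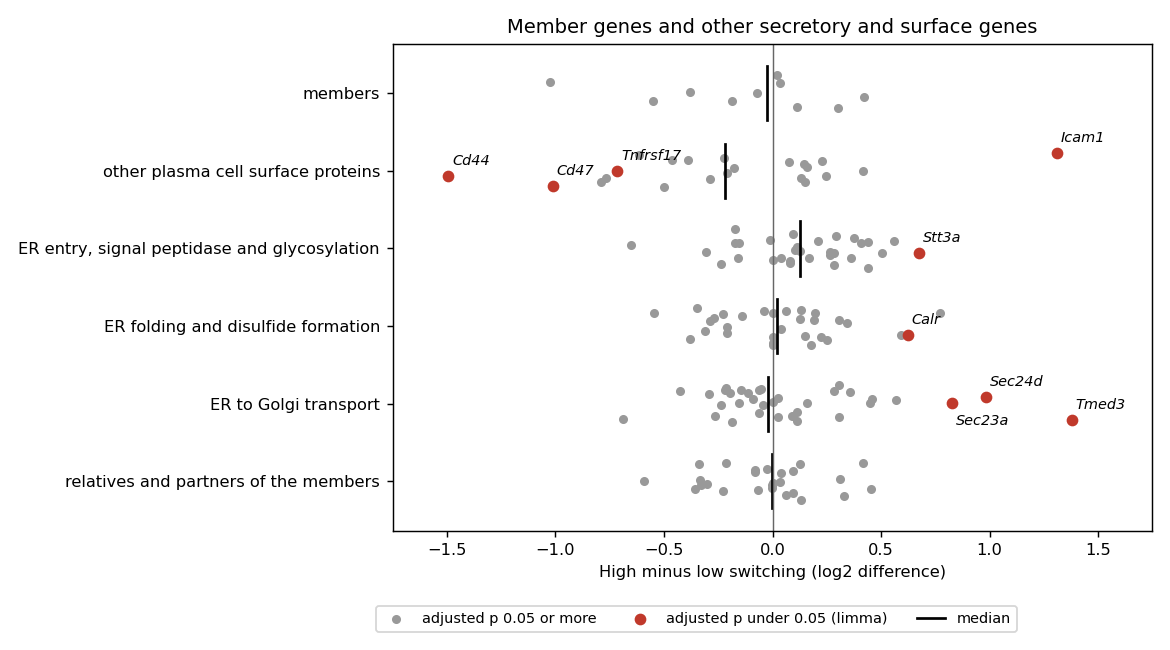
For each list of genes, points give the high minus low switching difference of every measured gene on the log2 scale, with the median as a line and genes past the threshold in red. The members run from -1.03 to 0.42, and the list medians lie between -0.22 and 0.13.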

How the data were processed

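RNA of 4 subclones of 1 mouse hybridoma was measured on 4 Affymetrix arrays. The authors deposited linear intensities, made with RMA per the submitters' processing notes, which give no version. RMA corrects background, normalizes between arrays and can compress differences of dim probe sets. The genome build was not given in the sources used here. The tests had been written for log2 values, so the deposited intensities were put on a log2 scale.

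After 64 controls were set aside from 45101 probe sets, 45037 were tested, with no minimum level. By the platform annotation of 2016, 34945 had 1 symbol, 932 several and 9160 none, and only those with 1 were named. Of these, 34741 matched a RefSeq gene table of GRCm38.p6. A gene was represented by its probe set with the highest mean. High minus low switching was fitted with limma 3.58.1 in R 4.3.3 on all 4 arrays, and the procedure was tested on simulated data. Tables were made with Python 3.11.15, pandas 2.3.3 and numpy 2.4.6, and figures with matplotlib 3.10.9. All probe sets of the 10 genes are given. From each other list up to 4 genes past the threshold with the smallest adjusted p, and up to 2 of the largest differences that missed it, were to be named. The relatives of Creb3l2, the signal peptidase subunits, the proteases, Grhl2, Cldn3, Elf3 and Irf4 were added after their values were seen. The members and lists were chosen with earlier results of these data known. Signals were set against an array's median or a mean log2 of 7, or ranked within a gene to pick its probe set. Intensities of different genes were added only for the sum of the epithelial markers, where the part of Elf3 was given. Transcript amounts were otherwise not compared between genes. Alternatives changed the variance model, the filter, normalization, an offset of 16, the choice of probe set, a block on hybridization controls, or left out 1 subclone.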

Additional observations from a re-analysis of the deposited data

How the results depend on the processing

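No paired analysis was possible because the labels state no pairing of high with low switching subclones. Each result was recomputed under up to 13 alternatives. For member genes 123 of the recomputed values kept their direction and their side of the threshold, 1 passed it newly (Epcam without H23) and 5 changed sign. Without 1 subclone, the count of member probe sets past the threshold ran from 0 to 1, Jchain from -0.031 to 0.10, Ell2 from -0.27 to 0.13 and Sec11c from -0.22 to 0.26. The count over all probe sets ran from 308 to 582, that of other surface proteins from 0 to 2, that of ER to Golgi transport was 1 each time, and those of ER entry and ER folding were 0 each time. The marker Ciita ran from -0.29 to 0.028. With fewer arrays, fewer probe sets can pass.

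With the hybridization control level as a block, 152 probe sets passed, and 0 each of other surface proteins, ER entry, ER folding and ER to Golgi transport. The block is balanced over the classes, so it left the differences unchanged. With less left to estimate the spread, fewer probe sets can pass. With a variance trend, robust or not, ER entry and ER folding had 2 each. ER folding also had 2 after quantile normalization, after cyclic loess and among probe sets above the median, where relatives of the members had 1. With 16 added before log2, other surface proteins had 2. Without probe sets that may bind several transcripts, ER entry and ER folding had 0, relatives of the members had 1 and Col1a2 was -0.0057; Epcam then has no value. The cause was not tested for these. Of the called genes named, the block ended all 14, the added 16 ended Icam1, Lum, Sec24d, Tnfrsf17 and Xbp1, and Tnfrsf17 also missed with a variance trend and after quantile normalization. Stt3a and Xbp1 missed without probe sets that may bind several transcripts. Of the other named genes, 345 recomputed values were the same, 64 lost the call, 12 gained it and 2 changed sign. Signal limits Ell2 1458569_at and Fkbp11 1425839_at, which lay below the median of the arrays. It also limits Lum, Blk, Ciita, Krt18, Tusc3 and Creb3l4, which did not lie above the median of every array.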
